A study of Homo sapiens with 9 samples.

Results

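The 54 keratin genes were followed over 30 and 60 min of progestin in breast cancer cells, of 20318 protein-coding genes in the deposited H2A table. They were every gene whose symbol was KRT followed by a number and, in some, a letter from A to C, on chromosomes 12 and 17. The members fell into 2 clusters of 27 genes each. Chromosome 12 held 26 type II keratins and KRT18, which is a type I keratin, and chromosome 17 held 27 type I keratins. The chromosome 17 genes lay in 2 blocks, 11 genes named KRT24 to KRT40 and 16 genes named KRT33A to KRT17, with the keratin-associated genes between them. This split was chosen after the values were seen.

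Keratins are the intermediate filament proteins of epithelial cells, and each filament is built from pairs of a type I and a type II chain. Simple epithelia, including the luminal layer of the mammary gland, use KRT8 with KRT18 and KRT19, whereas basal cells use KRT5 with KRT14. Upper epidermal layers, inner root sheath and hair shaft each have their own pairs. Most members of the 2 gene clusters are silent in any single cell type.

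All samples came from T47D-MTVL cells, derived from the luminal breast cancer line T47D and carrying a reporter gene under the MMTV promoter. Cells were kept without serum for a day and then given R5020, a synthetic progestin, at 10 nM. Chromatin immunoprecipitation and sequencing (ChIP-seq) was done for H2A, a core histone of the nucleosome, after 30 and 60 min of R5020 and in unstimulated cells (0 min). HP1γ, a chromobox protein that binds methylated histone H3, LSD1, a histone demethylase, and BPTF, the largest subunit of the NURF chromatin remodeller, were profiled after 30 min of R5020 and in unstimulated cells. The series held 9 samples from a single cell line, with 1 library for each antibody at each time. There were therefore no replicates and no tests between times, and no p-value is given. No library measured RNA, so the luminal identity of the line was not checked here against its keratin transcripts.

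H2A values were RPKM, reads over the gene scaled to its length and to the library size. The library recovered at 0 min held 140.75 M reads, that of 30 min 168.425 M and that of 60 min 132.95 M. The standard errors below cover the counting of reads only. RPKM also went up with the number of annotated transcripts of a gene, with a median at 0 min of 0.425 over 2463 genes with 1 transcript and 3.696 over 783 genes with 10, so levels of different genes are not compared here. Reads could be shared between near-identical copies, which makes the values of KRT6A, KRT6B and KRT6C, of KRT81, KRT83 and KRT86, of KRT14, KRT16 and KRT17, and of KRT31, KRT33A, KRT33B and KRT34 uncertain. KRT81 lay wholly inside KRT86, KRT8 and KRT18 overlapped by 698 bp, KRT17 overlapped JUP over 5138 bp and KRT10 overlapped TMEM99 over 3471 bp. Counting was on both strands, so reads of such neighbours cannot be told apart.

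Sequences of 3 sites where peaks of different lists overlapped, and of the BPTF sites, are given first, because the peak results refer to them. All are from the GRCh37 plus strand, outside annotated untranslated regions. In the first line, capitals mark the bases that lay inside the HP1γ peak at 30 min and also inside that at 0 min. That site, chr17:39665126-39665316 with 50 bases shown on either side of the shared stretch, lay between KRT15 and KRT13 and was the only place in the members' windows where HP1γ peaks of both times overlapped.
KRT13 and KRT15, HP1γ at both times: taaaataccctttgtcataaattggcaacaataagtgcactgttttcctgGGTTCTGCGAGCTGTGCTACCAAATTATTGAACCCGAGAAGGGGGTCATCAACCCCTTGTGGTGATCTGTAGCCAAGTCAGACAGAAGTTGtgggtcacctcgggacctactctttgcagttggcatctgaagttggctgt

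The next pair of lines shows the middle 200 bases of stretches where an HP1γ and an LSD1 peak overlapped, both at 0 min for KRT3 and at different times for KRT33A. Capitals mark TGTTCT or AGAACA, the hexamer bound by the progesterone and glucocorticoid receptors, searched on both strands. KRT3 and KRT33A are shown because they were the 2 members with peaks in all 4 HP1γ and LSD1 lists. The positions are chr12:53190944-53191143 and chr17:39499614-39499813.
KRT3, HP1γ and LSD1 at 0 min: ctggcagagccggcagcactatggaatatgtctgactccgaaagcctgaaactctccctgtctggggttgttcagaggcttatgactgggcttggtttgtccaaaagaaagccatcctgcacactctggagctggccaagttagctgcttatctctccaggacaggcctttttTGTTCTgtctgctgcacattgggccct
KRT33A, LSD1 at 30 min and HP1γ at 0 min: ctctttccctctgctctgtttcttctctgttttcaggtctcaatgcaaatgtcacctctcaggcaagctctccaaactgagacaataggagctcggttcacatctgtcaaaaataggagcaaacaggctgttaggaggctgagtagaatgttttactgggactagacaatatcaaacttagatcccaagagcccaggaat

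The hexamer was found in the KRT3 stretch and not in that of KRT33A. On chromosomes 12 and 17 it occurred in the middle 200 bases of 16.0% of 4632 HP1γ peaks and of 17.98% of 5117 LSD1 peaks at 0 min that were at least that long.

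The last pair shows the BPTF sites, with the same meaning of capitals. In the authors' deposited table of recruited BPTF positions, 1 site of 501 bp lay in an exon of KRT6A, and chr12:52881507-52881706 gives 200 bases of its part outside the untranslated region. In the authors' deposited table of displaced BPTF positions, 1 site of 735 bp lay beyond the 3′ end of KRT6C, and chr12:52860225-52860424 gives its middle.
KRT6A, BPTF recruited: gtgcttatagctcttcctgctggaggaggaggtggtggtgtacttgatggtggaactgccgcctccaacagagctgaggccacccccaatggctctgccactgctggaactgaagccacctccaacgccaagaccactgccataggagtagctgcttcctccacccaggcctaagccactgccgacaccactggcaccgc
KRT6C, BPTF displaced: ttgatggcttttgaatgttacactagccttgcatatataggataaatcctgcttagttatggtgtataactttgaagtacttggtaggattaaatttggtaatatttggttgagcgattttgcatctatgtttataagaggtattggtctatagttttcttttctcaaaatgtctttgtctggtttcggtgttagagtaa

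Neither stretch held the hexamer. The KRT6A stretch had a GC content of 60.5% and the KRT6C stretch of 32.5%.

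At 30 min of R5020, H2A over the keratins was mostly a little lower than in unstimulated cells, and no member moved by more than 0.5 on the log2 scale. Genes were kept where their mean RPKM was 0.1 or more, which held for 19709 genes and all 54 members. Of these genes, 1.99% were lower by more than 0.5 and 0.345% were higher. Of the members, 48 were lower and 6 higher, where 71.3% of all genes were lower. A smaller fold of 0.3 was passed by 18 members, all lower, where 18.5% of all genes were lower by more than that. The median change, taken on the log2 scale after adding a pseudocount of 0.05 to each RPKM, was -0.26 over the keratins and -0.14 over all genes tested. The pseudocount makes the change of low genes look smaller.

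The clusters and blocks are given apart. On chromosome 12, 27 of 27 members were lower at 30 min, with changes of -0.42 to -0.13 and a median of -0.28. On chromosome 17, the 16 genes KRT33A to KRT17 gave a like picture, all lower, with a median of -0.29 and a range of -0.45 to -0.12. The 11 genes KRT24 to KRT40 did not: 5 were lower and 6 higher, with a median of 0.01 and a range of -0.11 to 0.26. Nearly all other genes in the gene body GC range of the first 2 groups were lower too. They were 6942 of 7155 for chromosome 12 and 7458 of 7683 for KRT33A to KRT17. In the GC range of KRT24 to KRT40, 2765 of 4902 other genes were lower.

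**Figure D1:**
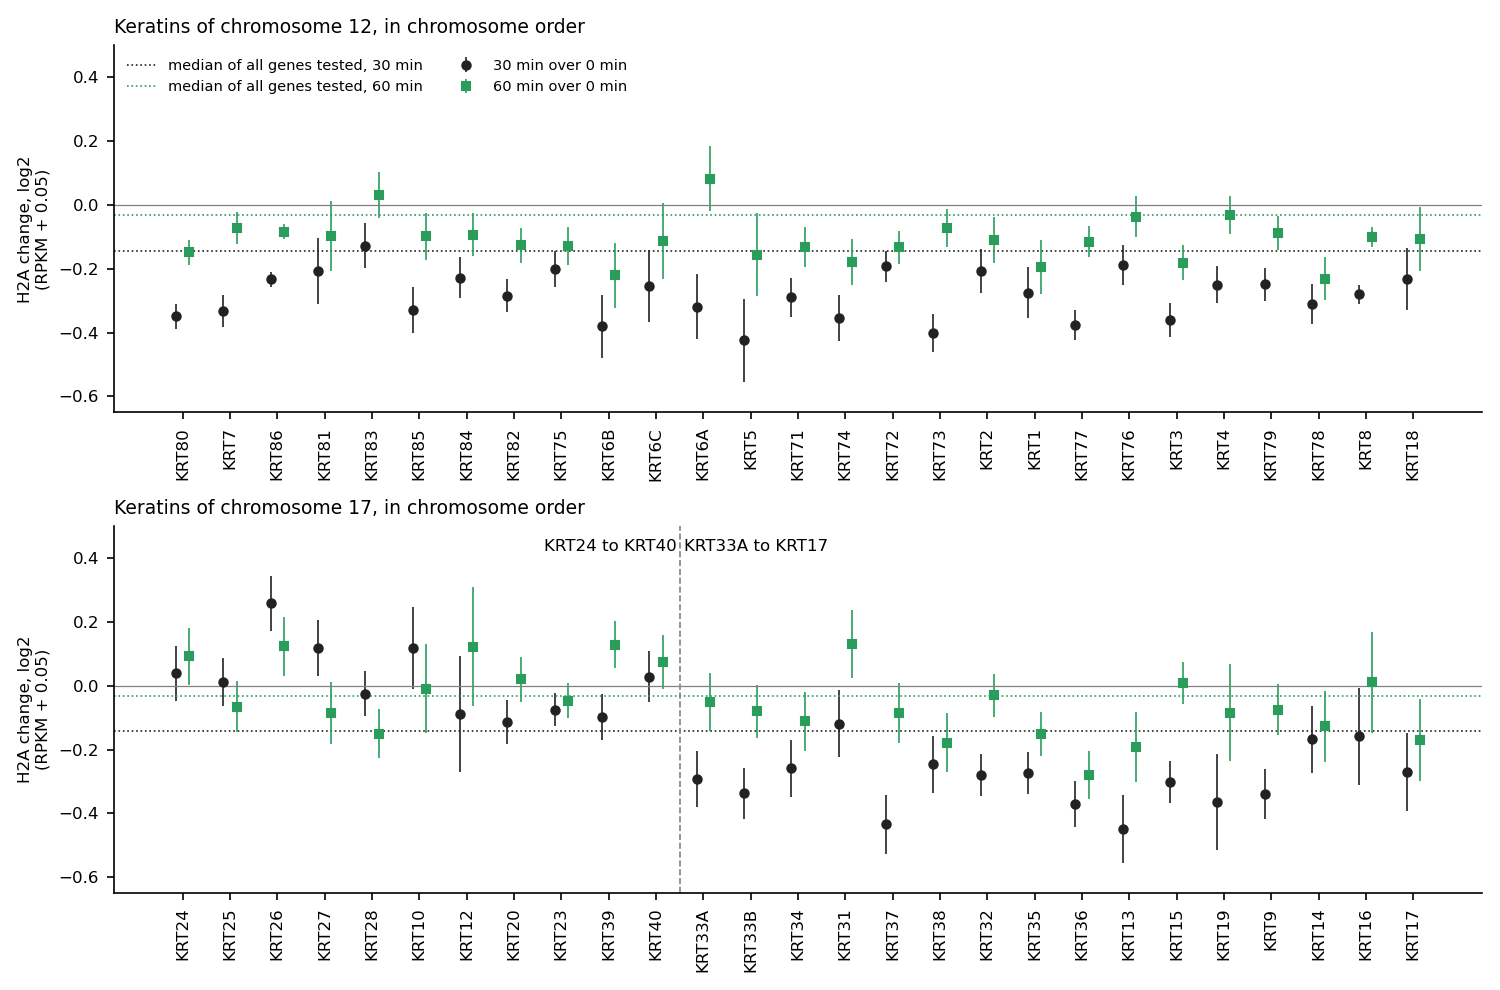
H2A change of each keratin gene in chromosome order, as the log2 ratio of RPKM plus 0.05, at 30 min (circles) and 60 min (squares) over 0 min. Bars are 1 counting standard error, dotted lines are the medians of all genes tested, and the dashed line parts the 2 blocks of chromosome 17, of which KRT24 to KRT40 lie around 0 at 30 min.

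Among the simple epithelial keratins, which include the chains of luminal mammary cells, all 7 were lower at 30 min, with a median of -0.28. Of all genes, 71.3% were lower. KRT8, the type II chain of simple epithelia, had 11.6 RPKM at 0 min, 9.57 at 30 min and 10.8 at 60 min. KRT18, its type I partner, had 5.75, 4.89 and 5.33 RPKM at 0, 30 and 60 min. Both were lowest at 30 min and lay between the other values at 60 min. The change at 30 min was -0.28 ± 0.03 (counting SE) for KRT8 and -0.23 ± 0.10 for KRT18.

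KRT19, a small type I keratin of luminal and ductal cells that lacks a tail domain, had 5.92, 4.58 and 5.58 RPKM at 0, 30 and 60 min. Its change was -0.36 ± 0.15 at 30 min, counted over 1571 bp, where GENCODE version 44 gives the gene 4692 bp. KRT7, the type II chain of glandular and ductal epithelium, had 10.2, 8.13 and 9.75 RPKM at the same times, and its change at 30 min was -0.33 ± 0.05. Both again had their lowest value at 30 min. KRT20, of intestinal epithelium and umbrella cells, had 1.17, 1.08 and 1.19 RPKM, and KRT23 had 6.45, 6.12 and 6.24 RPKM. These 2 lie in the KRT24 to KRT40 block, and their changes at 30 min, -0.11 ± 0.07 and -0.07 ± 0.05, were within 2 counting standard errors of 0.

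Of the 21 keratins of stratified epithelia, 19 were lower at 30 min, with a median of -0.27, where 71.3% of all genes were lower. KRT5, the type II chain of basal cells, had 8.46 RPKM at 0 min, 6.29 at 30 min and 7.59 at 60 min. Its change of -0.42 ± 0.13 at 30 min was the lowest of chromosome 12. It was counted over 2414 bp, where GENCODE version 44 gives KRT5 5956 bp. KRT14, the type I partner of KRT5, had 1.57, 1.39 and 1.43 RPKM, with a change of -0.17 ± 0.11, within 2 counting standard errors of 0. KRT15, another type I chain of basal cells, had 8.56, 6.93 and 8.61 RPKM, so that its 60 min value stood at the 0 min level again.

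KRT6A, KRT6B and KRT6C are induced in wounded or hyperproliferative epidermis together with KRT16 and KRT17. KRT6A had 2.27, 1.81 and 2.41 RPKM at 0, 30 and 60 min and was the member with the largest change between 30 and 60 min, 0.40 ± 0.10. KRT6B had 0.472, 0.351 and 0.398 RPKM, and KRT6C had 0.761, 0.63 and 0.7 RPKM. All 3 were lowest at 30 min, with changes of -0.32 ± 0.10, -0.38 ± 0.10 and -0.25 ± 0.11 against 0 min. The change was -0.16 ± 0.15 for KRT16 and -0.27 ± 0.12 for KRT17.

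**Figure D2:**
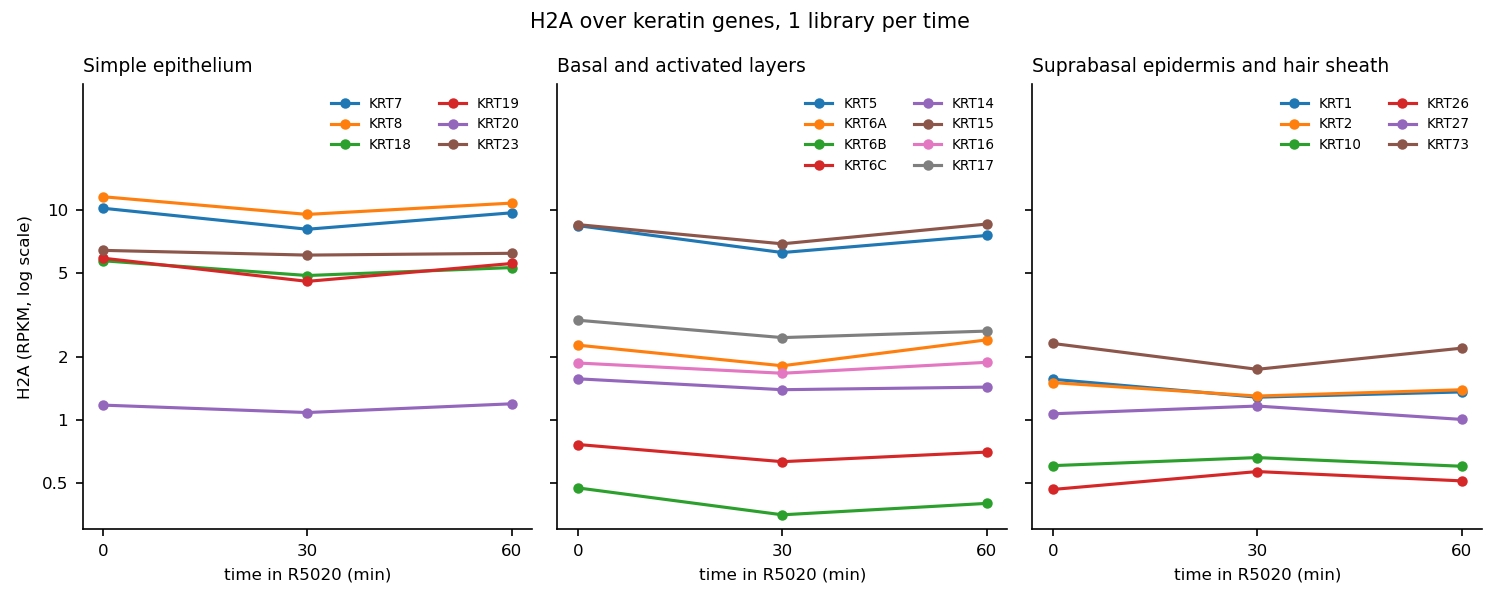
H2A RPKM on a log scale at 0, 30 and 60 min for keratins of simple epithelium, of basal and activated layers, and of upper epidermis and hair sheath, 1 library per time. Most lines dip at 30 min, whereas those of KRT10, KRT26 and KRT27 peak there.

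KRT13, the type I chain of internal stratified mucosa, had the lowest change of all members at 30 min. It had 7.22 RPKM at 0 min, 5.28 at 30 min and 6.31 at 60 min, so the change at 30 min was -0.45 ± 0.11. This was counted over 3389 bp, where GENCODE version 44 gives KRT13 4725 bp. The epidermal keratins of differentiated layers were not alike. KRT1 had 1.56, 1.28 and 1.36 RPKM and KRT2 1.504, 1.30 and 1.39 RPKM at 0, 30 and 60 min, both lowest at 30 min. KRT10, the type I partner of KRT1, had 0.603, 0.659 and 0.599 RPKM, highest at 30 min, but its change of 0.12 ± 0.13 was within 2 counting standard errors of 0. KRT9, the type I chain of palm and sole epidermis, had 1.48, 1.16 and 1.40 RPKM and a change of -0.34 ± 0.08 at 30 min.

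Of the 9 inner root sheath keratins, which form the rigid sheath around a growing hair, 6 were lower and 3 higher at 30 min. Their median was -0.19, and 71.3% of all genes were lower. KRT26 had 0.464 RPKM at 0 min, 0.565 at 30 min and 0.51 at 60 min. Its change of 0.26 ± 0.09 was the highest of the members and the only one more than 2 counting standard errors above 0. KRT27 had 1.07, 1.16 and 1.00 RPKM, whereas KRT73, on chromosome 12, had 2.31, 1.74 and 2.20 RPKM and a change of -0.40 ± 0.06. The changes of the 4 type I members of this list lay between -0.02 and 0.26, and those of the 5 type II members between -0.40 and -0.19.

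Of the 17 hair shaft keratins, the hard keratins of hair and nail, 16 were lower, with a median of -0.26. Among all genes 71.3% were lower. KRT37 had 0.842 RPKM at 0 min, 0.61 at 30 min and 0.791 at 60 min, so the change at 30 min was -0.43 ± 0.09. KRT36 had 1.73, 1.33 and 1.42 RPKM, a change of -0.37 ± 0.07, and was the lowest member at 60 min, with -0.28 ± 0.08. KRT83, with 0.704, 0.64 and 0.721 RPKM at 0, 30 and 60 min, had the change nearest to 0 on chromosome 12, -0.13 ± 0.07, followed by KRT76 and KRT72, each at -0.19. KRT40 was the only member of this list above 0 at 30 min, with 0.03 ± 0.08.

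The changes went with base composition. The GC content of the gene body was 38.6 to 43.2% in the KRT24 to KRT40 block, 46.1 to 59.3% in the KRT33A to KRT17 block and 46.3 to 58.2% in the chromosome 12 cluster. The keratins had median changes at 30 min of 0.01, -0.29 and -0.28 in these 3 groups, beside -0.02 in 4902, -0.26 in 7683 and -0.26 in 7155 other genes in the same GC ranges. With the trend against GC content over all genes taken off, the medians were 0.02, -0.02 and -0.03 in the same order, and 31 members were lower and 23 higher, where 52.5% of all genes were lower.

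**Figure D3:**
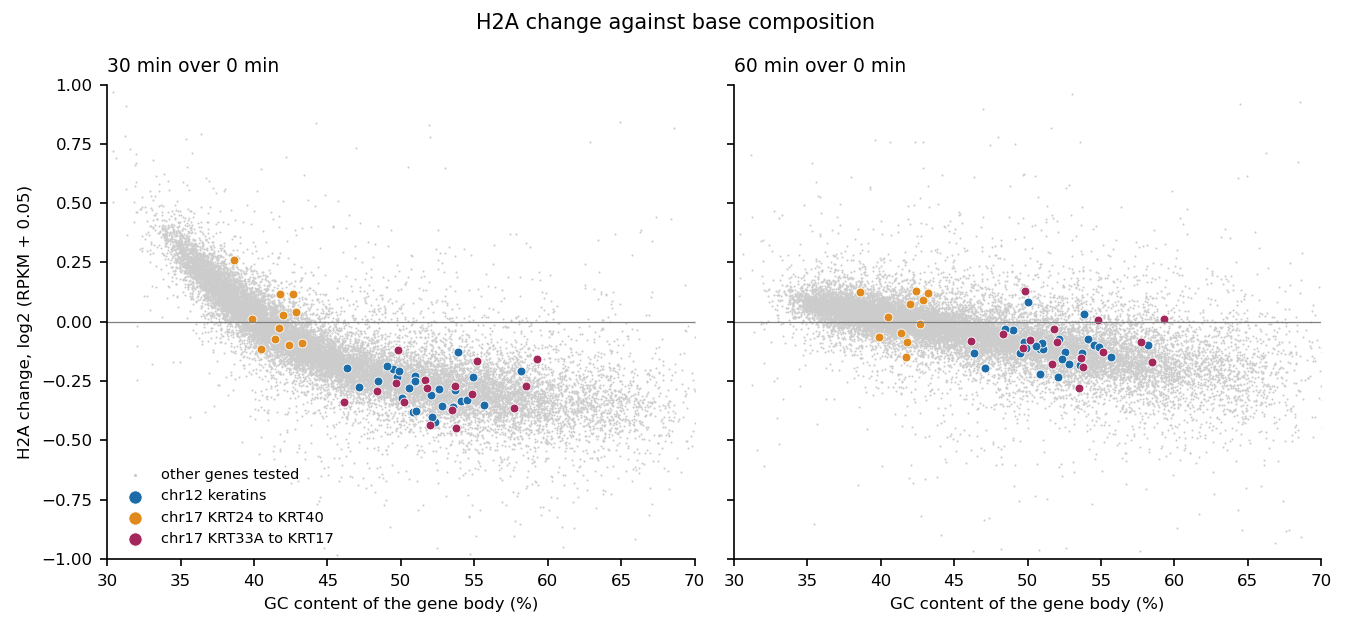
H2A change, as the log2 ratio of RPKM plus 0.05, against the GC content of the gene body, at 30 min (left) and 60 min (right) over 0 min, with the keratins coloured by block over all other genes tested (grey). The keratins lie within the cloud of other genes, and the KRT24 to KRT40 block sits at its GC-poor side.

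Before the trend was taken off, 39 members were more than 2 counting standard errors from 0 at 30 min, 38 of them lower, where 65.9% of all genes with an error were that far. After it, 3 of the 54 were, where 14.3% of all genes were. KRT26, at a GC content of 38.6%, had a change of 0.26 where 2126 other genes within 1 percentage point of GC had a median of 0.08. KRT5, at 52.3%, had -0.42 where 1310 such genes had a median of -0.27, and KRT13, at 53.8%, had -0.45 against -0.29 over 1173 genes. These 3 were named because their changes were extreme, so lying on the far side of genes of like composition was largely fixed by that choice. They did so by less than 0.2 each. Whether base composition set these changes was not tested. KRT222, which lies beside KRT24 and had no symbol in the table, was no member. Its change at 30 min, 0.38 ± 0.08 at a GC content of 36.9%, was above that of KRT26, and 0.19 with the GC trend taken off.

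The upstream sequences of the 2 ends of this contrast are shown, since their base composition differs as that of the gene bodies does. They are the 250 bases before the start of KRT26, the highest change at 30 min, and of KRT37, the lowest among members with a RefSeq promoter, from RefSeq on GRCh38.p14, minus strand. Capitals mark TATAAA, searched on the strand of the gene, and TGTTCT or AGAACA.
KRT26 upstream: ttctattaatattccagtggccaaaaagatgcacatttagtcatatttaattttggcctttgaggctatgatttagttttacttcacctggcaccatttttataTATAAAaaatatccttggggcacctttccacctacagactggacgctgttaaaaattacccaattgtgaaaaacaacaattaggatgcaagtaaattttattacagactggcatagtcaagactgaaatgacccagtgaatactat
KRT37 upstream: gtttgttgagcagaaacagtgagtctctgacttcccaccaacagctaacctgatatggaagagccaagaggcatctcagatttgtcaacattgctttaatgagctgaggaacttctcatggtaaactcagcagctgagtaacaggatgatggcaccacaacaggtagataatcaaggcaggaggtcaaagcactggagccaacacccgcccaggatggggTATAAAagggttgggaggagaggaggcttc

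RefSeq promoters of 300 bases, 250 before and 50 after the start, were matched for 34 of the 54 members. Those without a match included KRT7, KRT18, KRT19, KRT23, KRT6A, KRT6B, KRT6C, KRT13, KRT14, KRT15, KRT16 and KRT17. The shares below therefore leave out most luminal, basal and wound-induced keratins. In the KRT33A to KRT17 block the matched members were KRT9 and hair shaft keratins. TATAAA was in 18 of these 34 and in 7.71% of 27305 promoters in all. In 15 of the 34 it began between positions -35 and -21, counted back from the start, which was so in 2.45% of all promoters. It began at position -30 in KRT37 and at positions -146 and -3 in KRT26. By chromosome, 14 of 20 matched promoters on chromosome 17 and 4 of 14 on chromosome 12 held it. TGTTCT or AGAACA was in 5 of the 34 and in 14.9% of all, and TGANTCA, the AP-1 motif, in 0 of the 34 and in 7.76% of all. The median GC content of these promoters was 39% in the KRT24 to KRT40 block, 45.8% in the KRT33A to KRT17 block and 49.7% on chromosome 12, against 58.3% over all promoters.

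At 60 min the keratins were nearer to their unstimulated values. No member was past 0.5 either way, where 0.639% of all genes were lower by more than that and 0.249% higher. Of the members, 43 were lower and 11 higher than at 0 min, where 61.2% of all genes were lower, and the median was -0.09, beside -0.03 over all genes. It was -0.11 on chromosome 12, -0.08 in the KRT33A to KRT17 block and 0.02 in the KRT24 to KRT40 block. With the GC trend taken off, 27 members were lower and 27 higher, where 50.4% of all genes were lower, and 5 members were more than 2 counting standard errors from 0, where 7.44% of all genes were.

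At 60 min 15 members were more than 2 counting standard errors below 0 and none above, where 29.0% of all genes were that far from it. The lowest changes on chromosome 12 were those of KRT78, with 3.48, 2.80 and 2.96 RPKM at 0, 30 and 60 min and a change of -0.23 ± 0.07 at 60 min, KRT6B, with -0.22 ± 0.10, and KRT1, with -0.19 ± 0.08. On chromosome 17 they were those of KRT36, KRT13, with -0.19 ± 0.11, and KRT38, with -0.18 ± 0.09. The highest values on chromosome 17, KRT31 with 0.13 ± 0.11, KRT39 with 0.13 ± 0.07 and KRT26 with 0.12 ± 0.09, and the highest on chromosome 12, KRT6A with 0.08 ± 0.10, were within 2 counting standard errors of 0. KRT83, with 0.03 ± 0.07, and KRT4, with -0.03 ± 0.06, came next on chromosome 12.

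Between 30 and 60 min 49 members were higher and 5 lower, where 71.5% of all genes were higher. The median was 0.16, with a range of -0.20, in KRT27, to 0.40, in KRT6A, so none was past 0.5, where 0.294% of all genes were lower and 0.756% higher by more than that. This comparison shares the 30 min library with the first and the 60 min library with the second, so the 3 comparisons are not independent.

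HP1γ peaks lay within 5 kb of, or inside, 17 of the 54 keratins at 30 min and 30 at 0 min, and LSD1 peaks at 9 at 30 min and 21 at 0 min. These were 31.5%, 55.6%, 16.7% and 38.9% of the members. Among all genes, 25.7% had an HP1γ peak at 30 min, 29.9% an HP1γ peak at 0 min, 24.5% an LSD1 peak at 30 min and 26.1% an LSD1 peak at 0 min. Keratins are short genes, with a median length of 6766 bp against 22651 bp over all genes tested, and among genes of the members' length range the shares were 17.3%, 22.7%, 16.0% and 18.6% in the same order. Fewer peaks were listed at 30 min over the whole genome too, 23836 against 31845 for HP1γ and 20495 against 34990 for LSD1. The depth of these libraries is unknown, so how far it sets these counts was not tested.

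The clusters were farthest apart in LSD1 of unstimulated cells. On chromosome 17, 6 of 27 keratins had an LSD1 peak at 30 min and 17 of 27 at 0 min, where 18.6% and 23.8% of genes of that chromosome and length range had one. On chromosome 12, 3 of 27 had one at 30 min and 4 of 27 at 0 min, where 24.7% and 38.9% of such genes did. Neighbouring windows overlap, so members are not independent of each other.

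HP1γ peaks were spread more evenly. At 30 min 8 keratins of chromosome 17 and 9 of chromosome 12 had one, where 21.9% and 31.1% of genes of that length on those chromosomes did. At 0 min the counts were 18 and 12, where 38.3% and 42.2% of such genes did. The simple epithelial keratins held 14 of the 42 HP1γ peaks at 0 min in 5 of 7 genes. Some of the 14, at KRT19, also lay in the window of KRT15, a stratified epithelial keratin. At that time 13 of 21 stratified epithelial, 3 of 9 inner root sheath and 9 of 17 hair shaft keratins had one. The simple epithelial keratins are longer, with a median of 14725 bp against 6766 bp over all keratins. How far length sets this count was not tested.

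**Figure D4:**
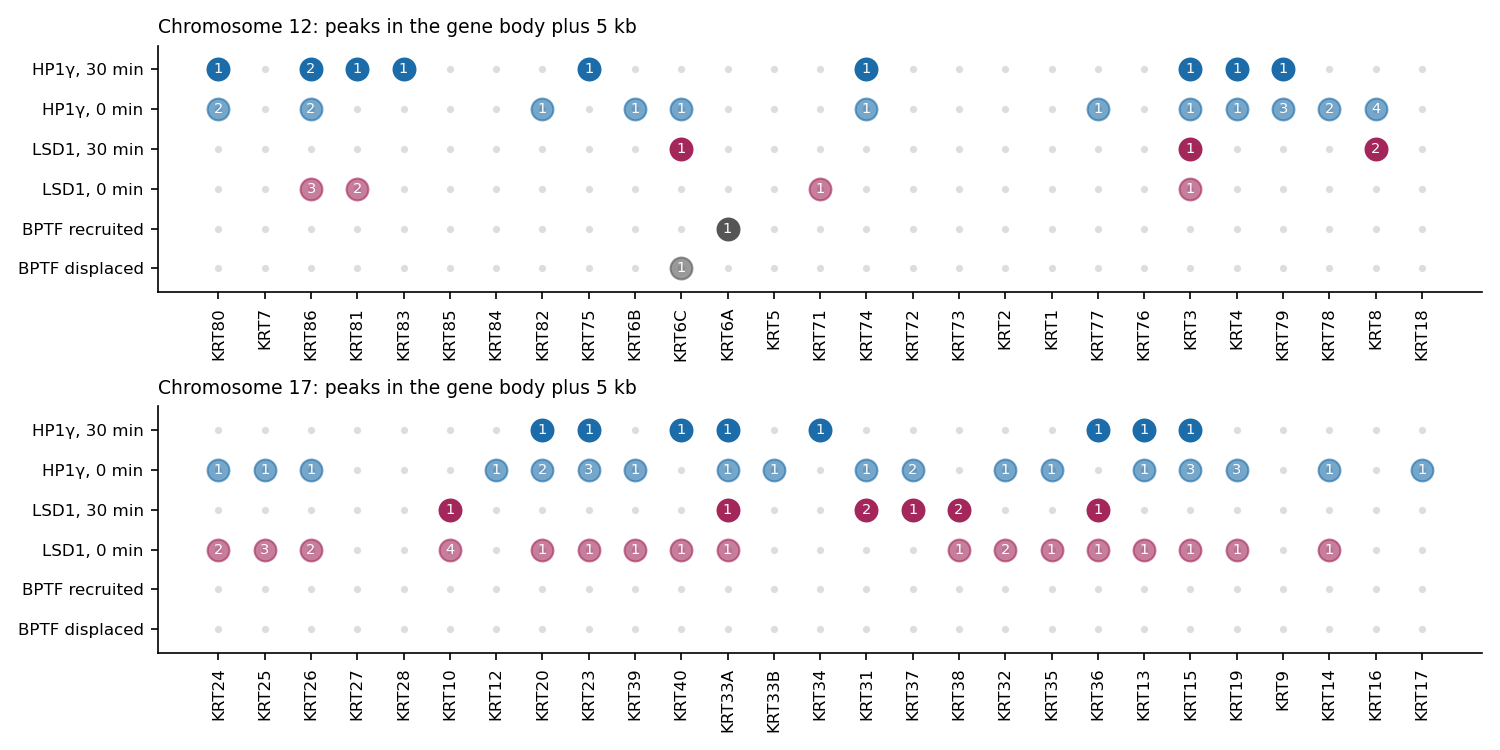
Number of peaks in the gene body plus 5 kb of each keratin, in chromosome order, for each peak list, with 30 min above 0 min. Large circles carry the count and small dots are 0. LSD1 peaks at 0 min are at 17 genes on chromosome 17 and at 4 on chromosome 12.

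Over the whole span of a cluster the contrast was also seen in peaks per Mb. At 30 min LSD1 gave 20.3 peaks per Mb over the chromosome 17 cluster and 7.56 over that of chromosome 12, where the chromosomes had 10.03 and 12.6. The Mb before and after held 13 and 8 on chromosome 17 and 9 and 13 on chromosome 12. By segment of chromosome 17, LSD1 at 30 min gave 22.9 over the keratin-associated genes and 27.7 over KRT33A to KRT17. Over KRT24 to KRT40 it gave 10.03, or 3 peaks, which was the level of the whole chromosome. At 0 min it gave 56.6 peaks per Mb over the chromosome 17 cluster, or 53 peaks, against 18.1 over the chromosome and 22 and 15 in the Mb before and after the cluster. Over the chromosome 12 cluster it again gave 7.56 peaks per Mb, or 6 peaks, against 27.3 over the chromosome and 18 and 24 in its flanks. The chromosome 17 peaks at 0 min were spread over all its segments, with 70.2 per Mb over KRT24 to KRT40, 60.2 over the keratin-associated genes and 38.1 over KRT33A to KRT17.

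HP1γ at 30 min gave 40.6 and 20.2 peaks per Mb over the clusters of chromosomes 17 and 12, where the chromosomes had 12.6 and 15.4. The chromosome 17 cluster was above its flanks, which had 25 and 20, and that of chromosome 12 lay between its own, which had 10 and 23. By segment of chromosome 17, HP1γ at 30 min gave 26.7 over KRT24 to KRT40 and 24.3 over KRT33A to KRT17. It gave 65.9 over the keratin-associated genes, so the keratin blocks themselves lay near the flanks. At 0 min it gave 55.5 peaks per Mb over the chromosome 17 cluster and 35.3 over that of chromosome 12, where the chromosomes had 19.8 and 22.6. Both clusters were then above their flanks, which had 36 and 37 on chromosome 17 and 25 and 29 on chromosome 12. At 0 min HP1γ gave 43.5 over KRT24 to KRT40, 57.3 over the keratin-associated genes and 65.9 over KRT33A to KRT17.

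**Figure D5:**
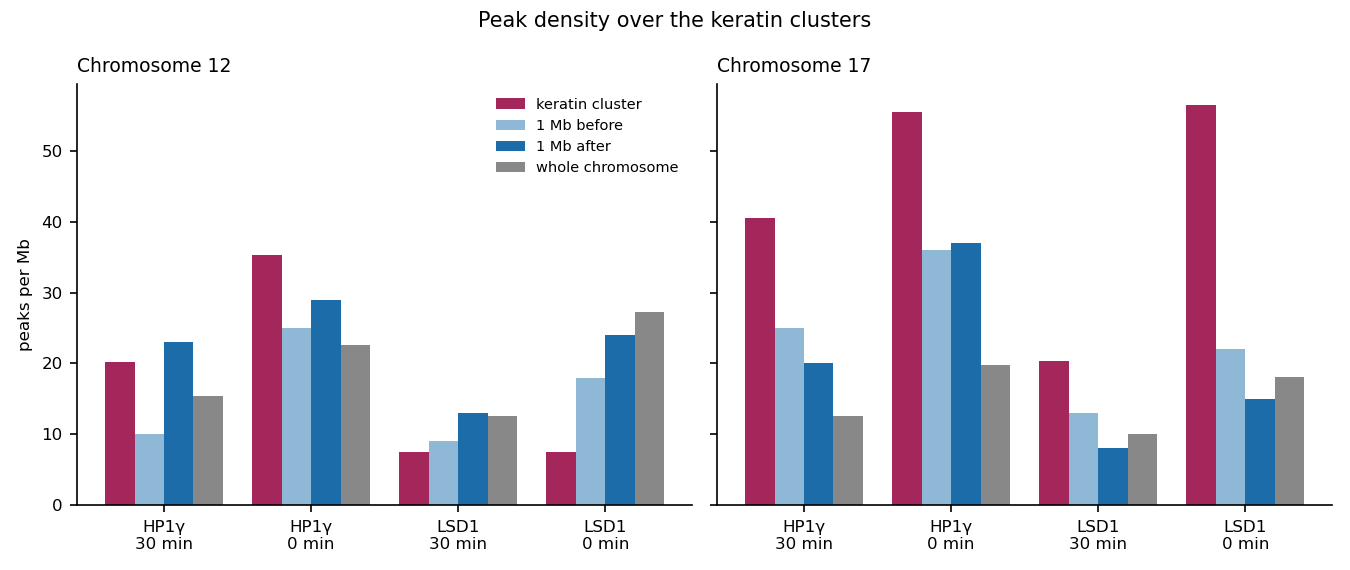
Peaks per Mb over each keratin cluster plus 5 kb, the Mb before and after it and its whole chromosome, for HP1γ and LSD1 at 30 min and 0 min. The bar of the chromosome 17 cluster is the highest of its group in every list, and that of the chromosome 12 cluster is the lowest in both LSD1 lists. The chromosome 17 span includes the keratin-associated genes between the blocks.

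Of the luminal keratins, KRT8, whose interval of 52544 bp is long for a keratin, held no HP1γ peak at 30 min and 4 at 0 min. Their scores, which are the authors' values per peak with 30 as the lowest, reached 68.75, at a site in an intron. LSD1 had 2 peaks beyond the 3′ end of KRT8 at 30 min, with scores of 34.95 and 33.15, and none at 0 min. KRT19 had no HP1γ or LSD1 peak at 30 min, against 3 HP1γ peaks and 1 LSD1 peak at 0 min. Of these, the HP1γ peak at chr17:39685898-39686358 lay in the window of KRT19 alone. The others also lay in that of its neighbour KRT15, a basal keratin. KRT7 and KRT18 had no peak in any list.

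KRT23 had 1 HP1γ peak at 30 min, in an intron, whose score of 44.88 was the highest of the members in that list, followed by KRT74 with 43.72 and KRT33A with 40.58. At 0 min it had 3, the widest of which spanned 1489 bp over the start of the gene with a score of 58.94. The peaks of the 2 times did not overlap. KRT79 held the highest HP1γ score of the members at 0 min, 70.51, in an intron, followed by KRT8 with 68.75 and KRT25 with 66.1.

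The highest LSD1 scores of the members at 30 min were 55.65 beyond the 3′ end of KRT33A, 42.09 beyond that of KRT6C and 39.16 upstream of KRT38. At 0 min they were 63.13 in an exon of KRT40, 55.11 upstream of KRT10 and 54.15 beyond the 3′ end of KRT25. KRT10 had 1 LSD1 peak at 30 min and 4 at 0 min, the most of any member.

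Peaks at the gene starts were found at a minority of members in each list. For HP1γ, a peak with its middle within 1 kb of the start was at 1 of 54 members at 30 min, KRT34. At 0 min there were 7 of 54, KRT4, KRT14, KRT15, KRT23, KRT31, KRT78 and KRT82. For all genes with a start in the annotation these shares were 2.00% and 3.42%. For LSD1 there were 3 such members at 30 min, KRT10, KRT31 and KRT38, and 1 at 0 min, KRT15, where 1.37% and 1.59% of all genes had one. The members were above the share of all genes for HP1γ at 0 min and LSD1 at 30 min. They were near it for HP1γ at 30 min and LSD1 at 0 min. That share is over all chromosomes, and starts on chromosomes 12 and 17 alone were not counted. Within 5 kb, HP1γ at 0 min was at 42.2% and 38.3% of genes of the members' length range there, against 22.7% on all chromosomes. LSD1 at 30 min was at 24.7% and 18.6% there, against 16.0%.

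Few peaks overlapped between the times, at the keratins and over the whole lists alike. HP1γ had peaks at 11 members at both times, at 6 at 30 min alone and at 19 at 0 min alone, but only 1 of its 16 peaks at 30 min overlapped a peak at 0 min, the site between KRT15 and KRT13 shown above. For LSD1 5 members had peaks at both times, 4 at 30 min alone and 16 at 0 min alone, and 0 of its 12 peaks at 30 min overlapped one at 0 min. Over the whole lists, 5.76% of HP1γ peaks and 6.38% of LSD1 peaks at 30 min overlapped a peak of the same protein at 0 min.

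HP1γ and LSD1 overlapped at 5 sites in unstimulated cells, among them sites at KRT3, KRT32, KRT39 and KRT86. The 5 were 11.9% of the 42 HP1γ peaks and 17.9% of the 28 LSD1 peaks at the members, beside 7.83% and 7.08% over the whole lists. An LSD1 peak at 30 min overlapped an HP1γ peak at 0 min at KRT31, 326 bp after its start as measured to the middle of the HP1γ peak, and at KRT33A. An HP1γ peak at 30 min overlapped the LSD1 peak at 0 min in KRT40. HP1γ and LSD1 peaks at 30 min did not overlap at any member.

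Each BPTF table had a site at 1 keratin. In the authors' deposited table of recruited positions, 1 of 54 members had a site, KRT6A, where 5.30% of all genes and 3.24% of those of the members' length range had one. In the authors' deposited table of displaced positions, 1 had a site, KRT6C, where 9.14% of all genes and 4.23% of those of the length range had one. KRT6A and KRT6C are neighbours and near-identical copies, so reads of either could be placed at the other. Beside these sites KRT6A had no HP1γ or LSD1 peak, and KRT6C had an LSD1 peak at 30 min and an HP1γ peak at 0 min.

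In all, 14 of 54 members had no peak in any of the 6 lists, where 47.2% of all genes and 55.1% of those of the members' length range had none. They were the type II keratins KRT1, KRT2, KRT5, KRT7, KRT72, KRT73, KRT76, KRT84 and KRT85 and the type I keratins KRT9, KRT16, KRT18, KRT27 and KRT28. The basal chain KRT5 was among them, whereas its partner KRT14 had none at 30 min and 1 HP1γ and 1 LSD1 peak at 0 min.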

How the data were processed

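ChIP-seq of 9 samples was mapped to hg19 (GRCh37) with Bowtie 1.0.0 and HOMER 4.7.2 was used, per the submitters' processing notes. The deposited H2A table holds RPKM per gene, counted with HOMER on both strands over GENCODE version 18, per the file headers. HP1γ and LSD1 peaks carry a score as deposited by the authors. For the peak caller, its control and the score's definition, the sources used here give nothing. BPTF positions carry no score and came from the authors' deposited table.

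Changes were log2 ratios of RPKM plus 0.05 over genes averaging 0.1 RPKM or more. The GC trend was a LOWESS fit with a span of 0.3 over all tested genes. RPKM steps of genes with 1 transcript gave each H2A library's depth. Within 0.1 read, 96.6% of 118, 98.1% of 106 and 97.0% of 132 low values at 0, 30 and 60 min came out whole. A counting standard error used these reads divided by the transcript number of GENCODE version 44 and is approximate. Peaks sharing 1 bp or more with the table's gene interval plus 5 kb were assigned to it, whereas exons, introns and starts came from GENCODE version 44. The table's interval was shorter or longer than that by over 300 bp at an end for 8 members. These were KRT5, KRT7, KRT13, KRT15, KRT16, KRT19, KRT72 and KRT78.

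Genes named were the luminal, basal and epidermal keratins, the 3 highest and 3 lowest changes per cluster and time, members with a BPTF site, and the 3 members with the highest score per list. Others were chosen after their values were seen. Sequences of the other shared sites are not reported here. Members and lists were chosen with earlier results of these data known. The trend code was tested on simulated data. Python 3.11.15, pandas 2.3.3, numpy 2.4.6, statsmodels 0.14.6 and matplotlib 3.10.9 were used. Alternatives were the pseudocount, the filter, centring, the GC trend, the fold counted, the window and the score limit, and 1 added after seeing the data, the GENCODE 44 interval.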

Additional observations from a re-analysis of the deposited data

How the results depend on the processing

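No member was called past 0.5, so there was no called direction for an alternative to turn. Signs of uncalled members did turn: 48 were lower at 30 min in the main setting and fewer with the GC trend taken off. A fold of 0.3 was passed by 18 members at 30 min, where 18.5% of all genes were lower by more than that. Taking off the GC trend moved most: at 30 min 31 members were then lower, and the medians were -0.0112 over all keratins, -0.0263 on chromosome 12, -0.00982 on chromosome 17 and -0.0152 for KRT33A to KRT17. At 60 min 27 were then lower, and the medians were 0.000424, -0.00329, 0.0140 and 0.0160 in that order. Centring on the median of all genes gave -0.114, -0.137, -0.0244 and -0.143 in that order at 30 min, and 0.15 for KRT24 to KRT40. A pseudocount of 0.5 gave -0.18 over all keratins and -0.20 for KRT33A to KRT17. Of 72 values of single genes, 50 moved by more than their counting error with the GC trend off, 35 with centring and 9 with the pseudocount of 0.5. A pseudocount of 0.01 or no filter moved none of them. A filter at 0.5 RPKM left 52 members, without KRT6B and KRT81, and moved none of the 70 values it kept.

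With the gene body alone, members with a peak numbered 9 and 18 for HP1γ at 30 and 0 min, 3 and 7 for LSD1, and 0 for displaced BPTF. With 10 kb they numbered 15 for LSD1 at 30 min and 2 for displaced BPTF. A score of at least 50 left 0 and 6 for HP1γ at 30 and 0 min and 1 and 5 for LSD1. The GENCODE 44 interval, added after seeing the data, gave 2 for displaced BPTF. The cause of these shifts was not tested, beyond the smaller or larger windows themselves. No paired analysis was possible because each antibody and time had 1 library. Depth limits H2A at KRT12 most, with a counting standard error of 0.18 at 30 min.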

Other observations

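The 33 keratin-associated genes between the blocks of chromosome 17, which encode the matrix proteins of the hair shaft, had a median H2A change of -0.14 at 30 min, with 24 lower and 8 higher, at a median GC content of 53.0%. The keratins KRT33A to KRT17 beside them had a median of -0.29 at 52.7%. After removal of the GC trend the medians were 0.12 and -0.02. They are short genes with near-identical copies, so their reads may be shared.

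Other intermediate filament genes off the clusters were lower at 30 min in 13 of 14 cases, with a median of -0.23, where 71.3% of all genes were lower. They had a median GC content of 51.4%. VIM, the filament protein of mesenchymal cells, had 6.11, 5.76 and 6.36 RPKM at 0, 30 and 60 min. LMNA, which encodes the A-type nuclear lamins, had 19.2, 15.9 and 17.4 RPKM.

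The 16 genes of keratin anchors and desmosomes split into 8 lower and 8 higher at 30 min, with a median of -0.01. The 7 desmosomal cadherins of the list lay between 0.02 ± 0.07 (counting SE), in DSG2, and 0.27 ± 0.05, in DSC1, with DSG3 at 0.03 ± 0.05, DSG1 at 0.27 ± 0.05 and DSC2 at 0.25 ± 0.07. Their GC content was 35.2 to 39.3%, and after removal of the GC trend their changes ran between -0.12, in DSG3, and 0.06, in DSC2. The plakins, which tie filaments to the junctions, were not alike. EVPL and PLEC were at -0.42 ± 0.05 and -0.41 ± 0.03, with GC contents of 60.0% and 63.6%. PPL was at -0.32 ± 0.03, DSP at -0.08 ± 0.06 and DST at 0.13 ± 0.01, with GC contents of 53.5%, 42.3% and 37.3%. With the trend taken off, EVPL and PLEC were at -0.09 and -0.07, and PPL, DSP and DST at -0.04, -0.01 and -0.03.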
